A study of Mus musculus with 4 samples.

Results

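Genes that write, erase or read methyl marks on histones and DNA were examined in 2 libraries of gene-trap insertions made in mouse haploid neural stem cell-like cells. The members were chosen by a pattern of gene symbols, with earlier results of these data known. The pattern took in families of histone lysine methyltransferases (Kmt, Setd, Ehmt, Nsd, Ezh, Dot1l, Suv), demethylases (Kdm), PHD finger genes (Phf) and PR-domain genes (Prdm). It also took in DNA methyltransferases and Tet genes, methyl-CpG binding genes (Mbd), Asxl genes and Jarid2. Of 5614 genes listed in either library, 41 were members. Of these, 30 were listed in library 1 and 28 in library 2. Both libraries listed 17 members, beside 31.0% of all listed genes, 13 were in library 1 only, beside 43.6%, and 11 in library 2 only, beside 25.5%. A gene of the Y chromosome whose symbol fits the pattern was left out of the set.

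Methyl groups on histones are placed by SET-domain enzymes and Dot1l and removed by amine oxidases of the Kdm1 type or by JmjC-domain oxygenases. On DNA, Dnmt enzymes place the mark on cytosine and Tet enzymes oxidise it. Polycomb complexes and these enzymes hold developmental genes silent or poised in stem cells, and loss-of-function variants in many of them impair brain development in humans.

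Both libraries came from genomic DNA of haploid cells, which carry each chromosome once. Embryonic stem cells of this kind, on a 129Sv background, had been taken through embryoid bodies into a medium with FGF2 and EGF, each at 20 ng/ml, an inhibitor of ROCK, and the receptor blockers LDN193189 (BMP) and SB431542 (activin and TGF-beta). All cells received a piggyBac gene trap plasmid with transposase and were selected with G418, so every library holds selected cells and there is no untransfected control. DNA next to the transposon was recovered by splinkerette PCR, which uses nested primers after an adapter is ligated. The 4 samples form 2 libraries of 2 samples, and each library has 1 table of reads per gene for its samples together. No value has a replicate check, no treatment is labelled as differing between the libraries, and a difference between them is a difference between 2 pools of reads. Because DNA was measured, the cell type could not be checked against expressed markers.

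Library 1 held 55442 nonredundant and 877870 redundant reads, and library 2 held 48750 and 1300140. How nonredundant was defined is not given in the sources used here. The counts are of PCR products without molecular identifiers, so they are not numbers of insertions or cells, and the 95% exact intervals below cover counting error only. A read count of 1 or 2 is weak evidence that a gene carried an insertion: 8 genes of the Y chromosome, which mouse haploid embryonic stem cells generally lack, were listed with at most 2 reads in a library. The labels do not give the sex chromosome of these cells. Values are nonredundant reads unless redundant reads are named.

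Most listed genes, members included, had fewer than 10 reads in each library. Of the 41 members, 9 had 10 or more reads in at least 1 library (22.0%, 95% interval 10.6 to 37.6), beside 13.4% of all listed genes. Library 1 and library 2 each had 5 such members (12.2% of the 41), beside 8.89% of all listed genes in library 1 and 5.24% in library 2. The 9 genes were Kdm5b, Asxl3, Kdm2b, Jarid2 and Prdm16 in library 1, and Prdm16, Phf2, Kdm4c, Kdm1a and Phf6 in library 2. Prdm16 was the 1 gene on both lists (2.44% of members, beside 0.766% of all listed genes). At the other end, 28 of the 41 members never exceeded 3 reads, beside 4291 of all 5614 listed genes. Of the 28, 13 had a single read over both libraries, beside 2622 of the 5614 listed genes. Exactly 1 read was found for 15 of 30 listed members in library 1, beside 53.7% of all genes listed there, and for 12 of 28 in library 2, beside 59.7%.

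**Figure D1:**
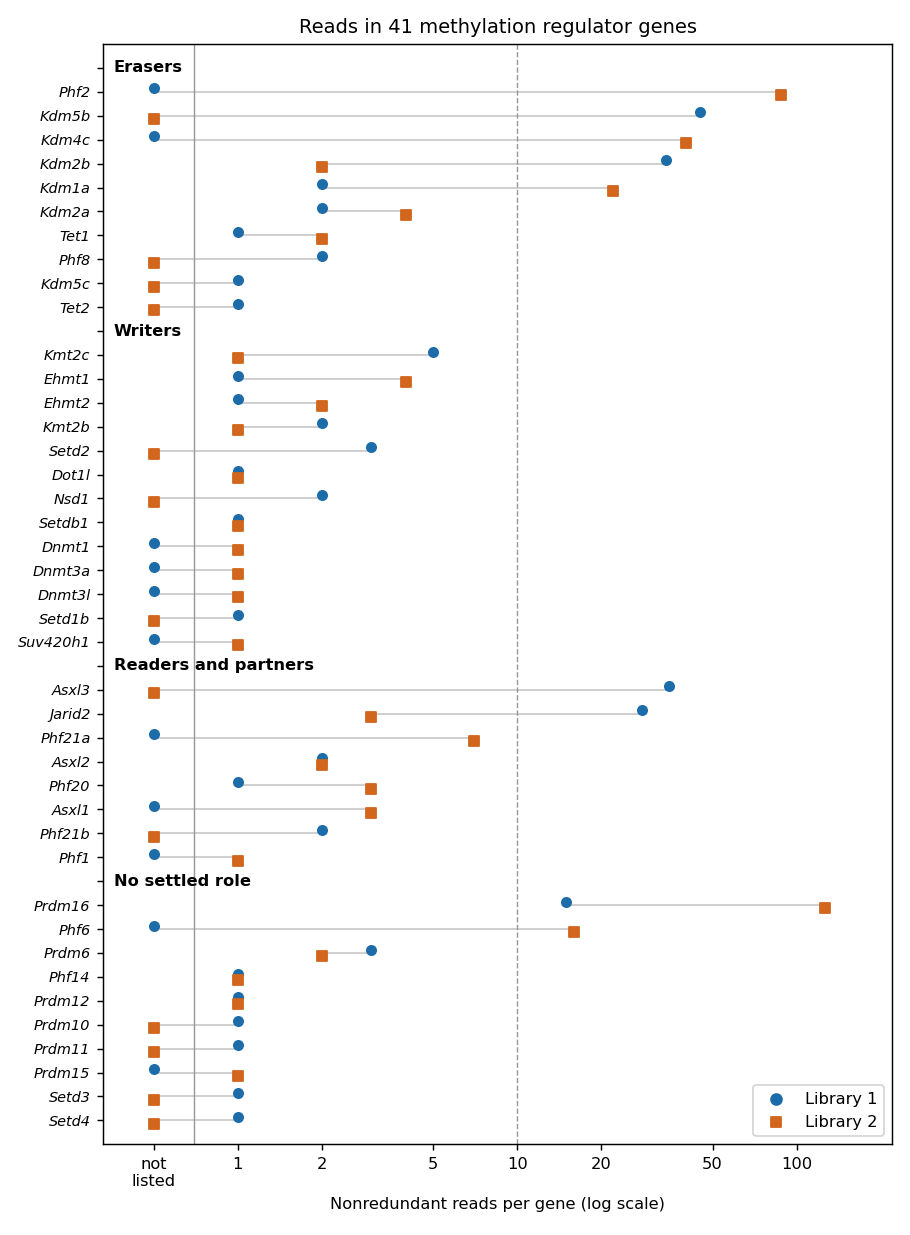
Nonredundant reads of each of the 41 members in library 1 (circles) and library 2 (squares) on a log axis, grouped by role, with genes that a library does not list left of the solid line and the minimum of 10 reads dashed. The 5 erasers with 10 or more reads each reach it in 1 library, all 13 writers stay at 5 reads or fewer, and Prdm16 passes 10 reads in both libraries.

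The piggyBac transposon inserts at the sequence TTAA. The 3 members with most summed reads were Prdm16, Phf2 and Kdm5b, and the 250 bases before their transcription starts are shown to set out where that sequence lies next to the start of the members with most reads. The sequences are those of RefSeq on build GRCm38.p6, while the authors mapped to mm9, and capitals mark TTAA.
Prdm16 (chr4:154636874-154637123, minus strand): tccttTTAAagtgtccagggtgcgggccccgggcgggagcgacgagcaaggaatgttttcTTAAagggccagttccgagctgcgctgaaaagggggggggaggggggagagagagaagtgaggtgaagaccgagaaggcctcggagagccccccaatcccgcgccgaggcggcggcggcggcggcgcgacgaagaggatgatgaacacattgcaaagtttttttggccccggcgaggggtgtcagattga
Phf2 (chr13:48870886-48871135, minus strand): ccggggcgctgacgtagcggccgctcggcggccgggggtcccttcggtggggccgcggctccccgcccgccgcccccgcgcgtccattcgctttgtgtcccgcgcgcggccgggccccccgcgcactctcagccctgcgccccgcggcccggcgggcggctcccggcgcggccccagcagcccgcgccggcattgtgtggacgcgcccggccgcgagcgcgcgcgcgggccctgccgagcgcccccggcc
Kdm5b (chr1:134559928-134560177, plus strand): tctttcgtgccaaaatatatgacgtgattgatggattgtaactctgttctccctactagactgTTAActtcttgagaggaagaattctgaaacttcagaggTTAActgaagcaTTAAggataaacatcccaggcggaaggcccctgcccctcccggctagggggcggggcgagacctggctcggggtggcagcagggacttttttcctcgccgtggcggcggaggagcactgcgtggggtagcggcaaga

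The Prdm16 window held 2 TTAA sites, beginning 245 and 190 bases before the start, and the Kdm5b window held 3, beginning 187, 149 and 137 bases before it. The window of Phf2 held 0. RefSeq windows were found for 34 of the 41 members, and 20 of their 52 windows (38.5%) held at least 1 TTAA, beside 49.0% of the 32851 windows of all genes. TTAA reads the same on both strands, so 1 search covers both. The tables give no insertion positions, so no read can be placed inside or outside these windows.

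Erasers had the most genes with 10 or more reads, by roles that were assigned with the reads known. Of 10 eraser genes listed, 5 had 10 or more reads (95% interval of the share 18.7% to 81.3%), beside 13.4% of all listed genes. Because the roles were assigned with the reads known, this interval is no test of an excess among erasers. The 13.4% is also not matched for gene length. Of the 10, 9 lay in the 2 longest of 10 gene length classes, beside 58.2% of all RefSeq genes listed. Erasers held 44.7% of the members' reads in library 1 and 46.7% in library 2, with 88 and 158 reads. Each of the 5 reached this level in 1 library and was unlisted or had 2 reads in the other.

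Kdm5b, a JmjC demethylase of trimethylated and dimethylated lysine 4 of histone H3 (H3K4), had 45 reads in library 1, and library 2 did not list it. With a gene that is not listed counted as 3 reads, its share was at least 13.2-fold higher in library 1. Such bounds leave out counting error in the library that lists the gene, and the exact 95% interval of this ratio began at 10.3. Kdm5b ranked 248 among 4184 listed genes in library 1, with tied genes given the best rank they share. It had 0.0812% of the reads there (95% interval 0.0592 to 0.109). Its X-linked paralog Kdm5c had 1 read in library 1 alone, and Kdm5a was not listed.

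Kdm2b, a demethylase with a CxxC finger that brings a variant Polycomb repressive complex 1 to unmethylated CpG islands, had 34 reads in library 1 and 2 in library 2. Its share was 14.9-fold higher in library 1 (95% interval 3.83 to 128), and 86.6-fold higher by redundant reads, of which it had 234 and 4 in libraries 1 and 2. The paralog Kdm2a, which also binds unmethylated CpG islands, had 2 reads in library 1 and 4 in library 2, a ratio of 0.440 whose interval (0.0398 to 3.07) includes equal shares.

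Phf2, a JmjC protein with a PHD finger that binds methylated H3K4 and acts on methylated lysine 9 (H3K9), was absent from library 1 and had 88 reads in library 2. Its share was thus at least 33.4-fold higher in library 2, where it ranked 85 among 3168 genes. Phf8, an X-linked relative with the same domains, showed the opposite listing at a level near that of the Y-linked genes, with 2 reads in library 1 and none in library 2. The third member of this family, Kdm7a, was in neither table.

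Kdm4c, a demethylase of trimethylated H3K9 and H3K36, was absent from library 1 and had 40 reads in library 2. Its share was at least 15.2-fold higher in library 2 (95% interval of library 1 over library 2 up to 0.0849). Kdm4a, Kdm4b and Kdm4d were not listed. Kdm1a, the amine oxidase LSD1 that demethylates H3K4 in corepressor complexes, had 2 reads in library 1 and 22 in library 2. Its share in library 1 was 0.0799 of that in library 2 (95% interval 0.00911 to 0.325). Kdm1b, its paralog, had no reads in either table.

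Among DNA demethylation genes, Tet1 had 1 read in library 1 and 2 in library 2, and Tet2 had 1 read in library 1 alone. Tet3 was not listed, so no Tet gene exceeded the counts seen on the Y chromosome. The demethylase families Kdm3 (Kdm3a, Kdm3b) and Kdm6 (Kdm6a, Kdm6b) were also absent from both tables. The 2 libraries together listed 21.4% of all RefSeq genes.

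Writers had few reads. Of 28 writer genes in RefSeq, 13 were listed (46.4%), beside 10 of 21 erasers (47.6%) and 21.4% of all RefSeq genes. With RefSeq genes split by length into 10 classes of equal size, 11 of the 28 writers and 15 of the 21 erasers lie in the 2 longest, which hold 20.0% of all RefSeq genes. None of the 13 reached 10 reads in a library, which allows a share of up to 23.1% by a limit of 3 counts, so the 13.4% of all listed genes lies within what 13 genes can show. Their reads summed to 17 in library 1 and 14 in library 2, or 8.63% and 4.14% of the members' reads.

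Kmt2c, a COMPASS-type methyltransferase that marks enhancers with monomethylated H3K4, had the most among writers, with 5 reads in library 1 and 1 in library 2 (ratio 4.40, 95% interval 0.492 to 208). Kmt2b, the related enzyme of CpG-rich promoters, had 2 and 1 reads in libraries 1 and 2. Setd1b, a methyltransferase of the Set1 complexes, had 1 read in library 1 alone. Kmt2a, Kmt2d and Setd1a were not listed.

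The H3K9 methyltransferase pair Ehmt1 and Ehmt2, which work as a heterodimer, was listed in both libraries. Ehmt1 had 1 read in library 1 and 4 in library 2, and Ehmt2 had 1 and 2. Setdb1, which trimethylates H3K9 at retroelements, had 1 read in each library. Suv39h1 and Suv39h2, the enzymes of pericentric heterochromatin, were not listed. For H3K36, Setd2 had 3 reads and Nsd1 had 2, in library 1 alone, and Nsd2 and Nsd3 had none. Dot1l, the H3K79 methyltransferase, had 1 read in each library, and Suv420h1 (Kmt5b in RefSeq), an H4K20 methyltransferase, had 1 in library 2.

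The listed Dnmt genes, all counted as writers here, appeared in library 2 only, each with a single read. They were Dnmt1, the maintenance methyltransferase, Dnmt3a, a de novo enzyme, and Dnmt3l, a cofactor without catalytic activity. Dnmt3b was not listed. With 1 read each, these 3 genes stand at the level of the Y-linked genes, and their absence from library 1 is within counting error.

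Readers and complex partners held 68 reads in library 1 and 19 in library 2, and 2 of the 8 listed members had 10 or more (25.0%, 95% interval 3.19 to 65.1), an interval that includes the 13.4% of all listed genes. Asxl3, a partner of the histone H2A deubiquitinase Bap1, had 35 reads in library 1 while library 2 did not list it. Its share was at least 10.3-fold higher in library 1 (95% interval from 7.91). Its paralog Asxl1 had 3 reads in library 2 alone, and Asxl2 had 2 reads in each library. All 3 Asxl genes were thus listed, 1 of them with 10 or more reads.

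Jarid2, a JmjC-family protein without demethylase activity that recruits Polycomb repressive complex 2 (PRC2), had 28 reads in library 1 and 3 in library 2. Its share was 8.21-fold higher in library 1 (95% interval 2.53 to 42.2). It was the sole PRC2 gene of the set with 10 or more reads. Phf1, a Polycomb-like accessory subunit, had 1 read in library 2 alone, while the catalytic subunits Ezh1 and Ezh2 and the accessory subunit Phf19 were not listed.

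Phf21a, the BHC80 subunit of the LSD1 corepressor complex that binds unmethylated H3K4, was absent from library 1 and had 7 reads in library 2. Its paralog Phf21b had the converse, with 2 reads in library 1 alone. Phf20, a Tudor-domain protein of the MOF acetyltransferase complex, had 1 read in library 1 and 3 in library 2. All 6 genes Mbd1 to Mbd6, which carry a methyl-CpG-binding type of domain, were absent from both tables. Absence was the usual state of a gene, as 21.4% of all RefSeq genes were listed in either library.

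The remaining 10 members have no settled role in methylation. Prdm16, a PR-domain zinc-finger factor that maintains neural stem cells and specifies brown fat, had 15 reads in library 1 and 126 in library 2. Its share in library 1 was 0.105 of that in library 2 (95% interval 0.0569 to 0.179). At 0.258% of library 2 (95% interval 0.215 to 0.308) it ranked 69 among 3168 genes, and it was the sole member with 100 or more reads, a level reached by 3.56% of all listed genes in either library.

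Phf6, an X-linked PHD-like gene mutated in an intellectual disability syndrome in humans, was absent from library 1 and had 16 reads in library 2, a share at least 6.07-fold higher in library 2. The other PR-domain genes were low. Prdm6 had 3 reads in library 1 and 2 in library 2, Prdm12 had 1 in each, Prdm10 and Prdm11 had 1 in library 1, and Prdm15 had 1 in library 2. Phf14 had 1 read in each library, and Setd3, an actin histidine methyltransferase, and Setd4 had 1 each in library 1.

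**Figure D2:**
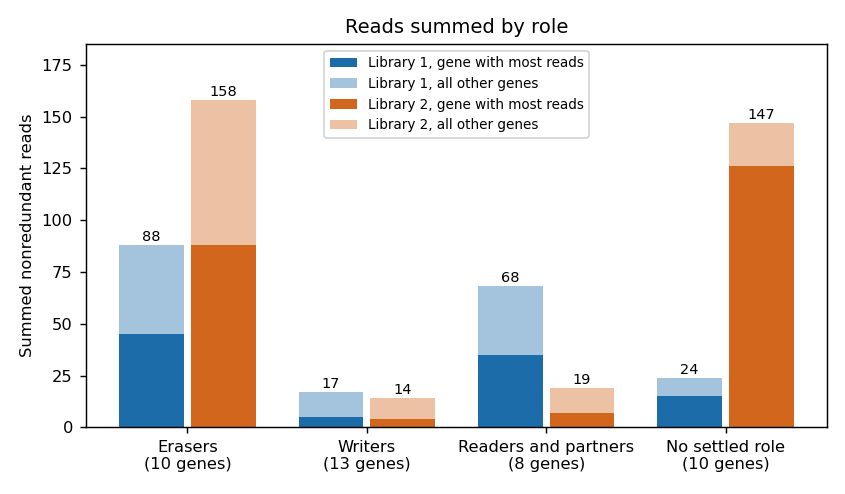
Summed nonredundant reads of the members by role, with library 1 left of library 2 and the gene with most reads in full colour at the base of each bar. Erasers hold 88 and 158 reads, writers 17 and 14, readers and partners 68 and 19, and the members with no settled role 24 and 147, of which Prdm16 gives 15 and 126.

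The intervals of most neighbours in the order of reads overlapped, which by itself does not show equal shares, and genes were not compared directly within a library. In library 1 the intervals of Kdm5b, Asxl3, Kdm2b and Jarid2 overlapped, from 0.0812% for Kdm5b to 0.0505% for Jarid2 (0.0336 to 0.0730), so the intervals do not order these 4. In library 2, Prdm16 and Phf2 (0.181%, 0.145 to 0.222) overlapped slightly, and both lay above Kdm4c (0.0821%, 0.0586 to 0.112). Kdm4c overlapped Kdm1a (0.0451%, 0.0283 to 0.0683), and Kdm1a overlapped Phf6 (0.0328%, 0.0188 to 0.0533).

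The members with most reads were mostly different genes in each library, with Prdm16 on both lists, whereas 17 of the 41 had at least 1 read in each. All 9 members with 10 or more reads had a share at least 2-fold higher in a library where they had 10 or more reads, with 4 in library 1 and 5 in library 2. Of the 750 genes with 10 or more reads in either library, 60.8% met this rule in library 1 and 34.4% in library 2, so such a lean was the usual state of a gene in these tables. The 5 members of library 1 with 10 or more reads held 79.7% of its 197 member reads, and the 5 of library 2 held 86.4% of 338. Summed over the 41 genes, the members took 0.355% of the reads in library 1 (95% interval 0.308 to 0.408). In library 2 they took 0.693% (0.622 to 0.771), which gives a ratio of 0.512. Without the 10 members of no settled role, Prdm16 included, these shares were 0.312% and 0.392%, a ratio of 0.796.

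The share of members with at least 1 read was close to that of other genes of like length in the longest classes. RefSeq has 100 genes with curated transcripts whose symbols fit the pattern. Of these, 30.0% were listed in library 1, 28.0% in library 2 and 41.0% in either library, beside 15.9%, 12.1% and 21.4% of all 26220 such genes. Set against the genes with NM transcripts, which make up nearly all listed genes, the background was 19.9% in library 1 and 15.0% in library 2. The pattern picks long genes: when all RefSeq genes were ordered by length and split into 10 classes of equal size, 49.0% of the members fell in the 2 longest classes. In those classes 30 of 49 members were listed (61.2%, 95% interval 46.2 to 74.8), beside 62.3% of all genes there. In the longest class the shares were 75.0% and 75.5%. In classes 1 to 8, 11 of 51 members were listed (21.6%, 11.3 to 35.3), beside 11.2% of all genes, and the interval lies just above that share. By library these were 15.7% (7.02 to 28.6) beside 7.33% in library 1 and 15.7% beside 5.45% in library 2. In classes 7 and 8, 7 of 22 members were listed in either library (31.8%, 13.9 to 54.9), beside 27.7% of all genes. Classes 1 and 2 held no members. In classes 1 to 6, 4 of 29 members were listed in either library (13.8%, 3.89 to 31.7), beside 5.66% of all genes. All 4 were listed in library 2, beside 2.49% of all genes there, and 3 of them in library 1 (10.3%, 2.19 to 27.4), beside 3.73%. Length still varies within these groups of classes.

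**Figure D3:**
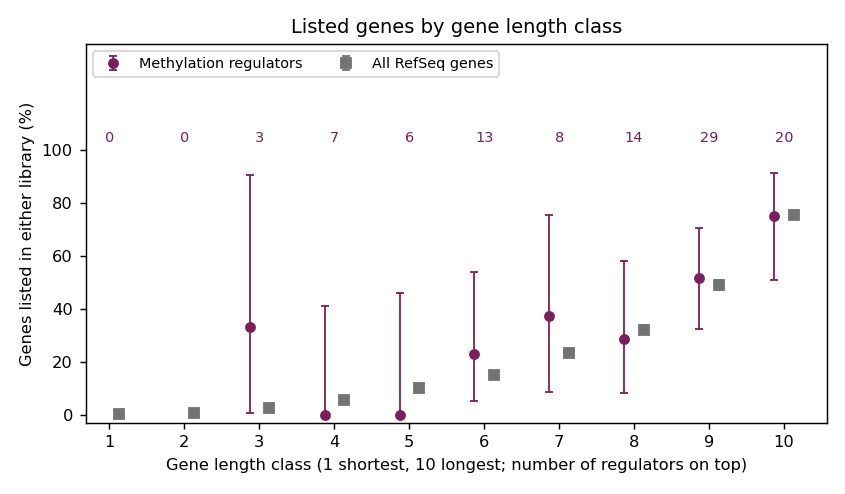
Percentage of genes with at least 1 nonredundant read in either library, by gene length class, for the 100 RefSeq genes fitting the pattern (circles, left; their number per class on top) and all RefSeq genes with curated transcripts (squares, right), with exact 95% intervals. Members and all genes lie close together in class 9 (51.7% and 49.0%) and class 10 (75.0% and 75.5%), and the member intervals are wide in the short classes.

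Of the members with 10 or more reads, 8 of 9 (88.9%) lay in the 2 longest classes, beside 77.2% of all RefSeq genes with 10 or more reads, and Phf6 lay in class 8. In the 2 longest classes 8 of 49 members had 10 or more reads (16.3%, 7.32 to 29.7), beside 11.0% of all genes. Within these classes, 5 of 15 eraser genes and 0 of 11 writer genes reached that level. The roles were assigned with the reads known, so these counts are no test of a difference between roles. Unlisted members were shorter, with a median class of 7 against 9 for listed members. The listed genes were spread over 17 of 20 chromosomes (1 to 19 and X), with at most 6 on a chromosome.

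Redundant reads, by their name those with repeats kept, put the leading genes partly in another order. Kdm5b had 334 redundant reads in library 1, Kdm2b 234, Asxl3 142, Prdm16 135 and Jarid2 81. In library 2, Prdm16 had 979, Phf2 357, Kdm4c 325, Phf6 44 and Kdm1a 33. Per nonredundant read this was 2.89 to 9.0 in library 1 and 1.5 to 8.12 in library 2, and the medians of these 5 and 5 genes were 6.88 and 4.06, beside 4.53 and 4.55 for all genes with 10 or more reads. Over all members the ratio was 5.19 in library 1 and 5.96 in library 2, under the 15.8 and 26.7 of the library totals. Both counts were equal in 15 of 30 members of library 1 (beside 56.4% of all genes listed there) and in 13 of 28 of library 2 (46.4%, beside 56.2%).

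**Figure D4:**
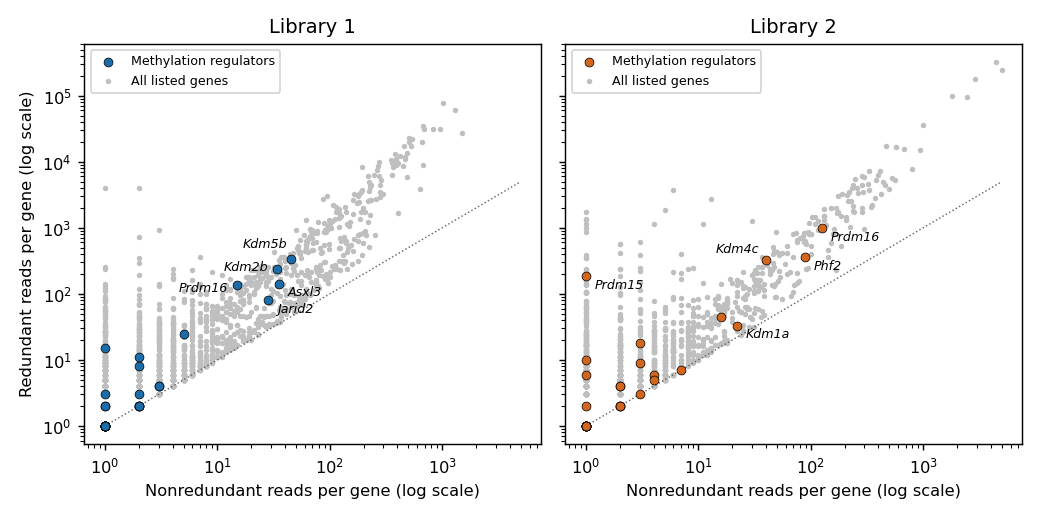
Redundant against nonredundant reads per gene on log axes in library 1 (left) and library 2 (right), with members in colour over all listed genes in grey and a dotted line where both counts are equal. The leading members lie within the band of other genes, and Prdm15 stands apart in library 2 with 1 nonredundant and 187 redundant reads.

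Partners of the same enzymes, and other enzymes of the pathway, that the symbol pattern does not cover were read from a separate list. It held Polycomb, COMPASS, SET-domain, arginine methyltransferase, JmjC and heterochromatin genes. Of 70 found in RefSeq, 18 were listed in library 1 (beside 15.9% of all RefSeq genes) and 10 in library 2 (beside 12.1%). In either library 20 were listed (28.6%), beside 21.4% of all RefSeq genes. These shares are not matched for length, and the list had a median length class of 7 against 5.5 for all RefSeq genes. Of the 20 genes listed in either library, 4 had 10 or more reads in library 1, beside 8.89% of all listed genes. In library 2 none of them exceeded 2 reads, while 5.24% of all listed genes had 10 or more there. Phc2, a Polycomb repressive complex 1 subunit, had 426 reads in library 1 while library 2 did not list it, a share at least 125-fold higher in library 1 and above every member.

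The SET and MYND domain gene Smyd3 had 20 reads in library 1 and 1 in library 2 (ratio 17.6, 95% interval 2.81 to 729). Aebp2, a PRC2 accessory subunit found in the same complex as Jarid2, had 19 and 1 reads in libraries 1 and 2 (16.7, 2.66 to 694). Prmt8, an arginine methyltransferase of neurons, had 13 and 2 (5.72, 1.29 to 52.2). The PRC2 core genes Eed and Suz12 had 1 read each, in library 1 alone.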

How the data were processed

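Genomic DNA of 4 samples was measured as 2 libraries, with samples grouped by the processed table their descriptions point to. The deposited tables give, per the file headers, raw read counts per gene (nonredundant and redundant reads), pooled over 2 samples, and no gene has 0 reads. Per the submitters' processing notes, CASAVA and BWA were used with build mm9, without versions. For gene assignment and read filters, nothing is stated.

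Shares of the library totals with exact Clopper-Pearson 95% intervals, and ratios of library 1 over library 2 with exact conditional intervals, were computed with Python 3.11.15, scipy 1.17.1 and pandas 2.3.3. The calls were also run on simulated counts of genes with more reads than most members and changes larger than 2-fold. That run therefore cannot tell how reliable the members' calls are. A gene not listed counts as 3 reads, which makes its ratio a bound that leaves out counting error in the other library. With 1 table per library no p-value was computed. Redundant reads, other read minima, other totals and narrower member sets were tried as alternatives. Genes were matched through transcripts to RefSeq on GRCm38.p6 (5612 of 5614, and 41 of 41 members), whose lengths served to order genes only.

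Named genes are members with 10 or more reads in a library, Phf2, Jarid2, the 5 members with most reads per role, and others by family. Members, lists and roles were chosen with earlier results of these data known, and roles were written with the reads known.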

Additional observations from a re-analysis of the deposited data

How the results depend on the processing

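No paired analysis was possible because each table pools its 2 samples, and for the same reason no sample could be left out. Of 42 recomputed counts and shares, 27 stayed within 1.5 times the count or within the interval of the share. Some of these could not move by construction, such as listing by redundant reads. The 9 members' ratios kept their direction with redundant reads; the other settings rescale all ratios alike or alter bounds only, and say nothing on direction. At a minimum of 2 reads, 15 members were listed in library 1 and 16 in library 2, beside 7.39% and 4.87% of all RefSeq genes. With redundant reads, 8 members (19.5%) reached 10 reads in each library, beside 16.3% of all listed genes in library 1 and 11.8% in library 2. Without the members of no settled role, 3 remained at 10 reads in library 2. The members' summed share was 0.116% in library 1 and 0.155% in library 2 with redundant reads (ratio 0.752), 0.424% and 1.2% with totals that leave out the 10 leading genes (ratio 0.353), and 0.247% and 0.435% without Kdm5b and Prdm16. Without the members of no settled role it was 0.392% in library 2 (ratio 0.796). Redundant reads put Prdm16 in library 1 at 0.204 of its share in library 2. They put Kdm2b 86.6-fold and Jarid2 13.3-fold higher in library 1. With an unlisted gene counted as 3 redundant reads, Kdm5b came out 165-fold and Asxl3 70.1-fold higher there. By the same count Phf2 came out 80.4-fold, Kdm4c 73.1-fold and Phf6 9.9-fold higher in library 2. Redundant reads by their name keep repeats, so 3 of them set no firm limit. The redundant ratios of unlisted genes are therefore not bounds. Without the 10 leading genes in the totals, Kdm5b was at least 9.08-fold and Asxl3 at least 7.06-fold higher in library 1. The cause of these shifts was not tested, apart from the removal of genes that makes 3 of the settings. The NM background and the settings without Prdm16 were chosen after seeing the data. Single-digit read counts limit every statement on the writers.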

Other observations

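Prdm15, a PR-domain zinc-finger factor, had 187 redundant reads on 1 nonredundant read in library 2, the highest redundant count among the members with fewer than 10 nonredundant reads. By redundant reads it joins the members with a share at least 2-fold higher in library 2, which then number 6. Kmt2c and Nsd1 join those of library 1, which then also number 6. Library 1 did not list Prdm15 and library 2 did not list Nsd1, and each was counted as 3 redundant reads there. Their ratios are therefore not bounds, and the 2 genes had 1 and 2 nonredundant reads. Over all listed genes, redundant reads gave 820 genes with a share at least 2-fold higher in library 1 and 499 in library 2, against 456 and 258 by nonredundant reads. Phf20 had 15 redundant reads on 1 nonredundant read in library 1 and 18 on 3 in library 2.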
